A study of Mus musculus with 9 samples.

Results

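The coagulation and fibrinolysis genes are 32 mouse genes, named one by one, that encode fibrinogen and its cross-linker, the clotting proteases and their cofactors, the contact system, the inhibitors of clotting, the enzymes of fibrinolysis and the enzymes that serve vitamin K dependent clotting factors. Of the 26388 genes with a row in the deposited tables, 31 of these 32 are present, and Plat (tissue plasminogen activator) is not analysed here. The 9 livers came from male wild-type C57BL/6 mice of 8 weeks, and single cells were profiled with Drop-seq, a droplet method that tags each captured RNA molecule with a cell barcode and a unique molecular identifier (UMI). Mice 1, 4 and 7 received an intravenous injection of PBS, mice 2, 5 and 8 received AAVrh.10Null and mice 3, 6 and 9 received AAVrh.10mCherry, so that each group had n = 3. AAVrh.10 is a vector made from an adeno-associated virus, a small virus with which genes are carried into tissues, and mCherry is a red fluorescent reporter protein. The labels say no more of what the Null vector carries. The dose and the interval between injection and liver collection are not given in the sources used here.

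Blood clots when tissue factor meets factor VII, a cascade of proteases and their cofactors makes thrombin, and thrombin turns fibrinogen into a fibrin mesh that factor XIII cross-links. Antithrombin, heparin cofactor II, protein C with protein S, protein Z and tissue factor pathway inhibitor hold the cascade in check, and plasmin dissolves the mesh. Hepatocytes are known as the main source of most of these plasma proteins, whereas the sinusoidal endothelium of the liver is known as a source of factor VIII.

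Levels are given in CPM, the UMIs of a gene per 1000000 UMIs of the liver or barcode class, summed over barcodes with at least 200 genes. Drop-seq reads the 3' end of a transcript and counts 1 UMI per captured molecule, so levels of different genes were compared on this scale without a length correction. The livers yielded between 291338 and 11220147 UMIs in 550 to 7195 barcodes, and mouse 7 (PBS) was the shallowest, with 386.5 UMIs in its median barcode. Libraries shared at most 6 cell barcodes, and all 12 hepatocyte markers were detected, including Alb and Apoa1. Mitochondrial transcripts made up 3.43 to 17.8% of the UMIs, with mice 6 and 8 highest. An uncalled base ended 0.0972%, 4.83% and 0.278% of the barcodes of mice 2, 7 and 8 and 25.4 to 27.5% of those of the other 6 mice. The labels do not say whether these libraries were made differently.

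The 31 genes together made up 1.58 to 2.45% of the UMIs of a liver (median 1.97%). Fibrinogen and factor XIII genes held 46.1 to 58.3% of the coagulation UMIs, the contact system 14.4 to 21.8%, the inhibitors of clotting 10.1 to 12.4% and the clotting proteases 7.63 to 11.6%. Fibrinolysis genes held 5.24 to 8.17%, the vitamin K enzymes 1.05 to 1.93%, and the cofactors with tissue factor 0.794 to 1.93%. Single genes ranged from 5879 ± 1289 CPM for Fgb to 0.141 ± 0.150 for Vwf (SD, n = 9). The least variable gene was F10, whose highest liver stood 1.37 times above its lowest, and the most variable gene detected in every liver was F8, with a ratio of 6.15.

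**Figure D1:**
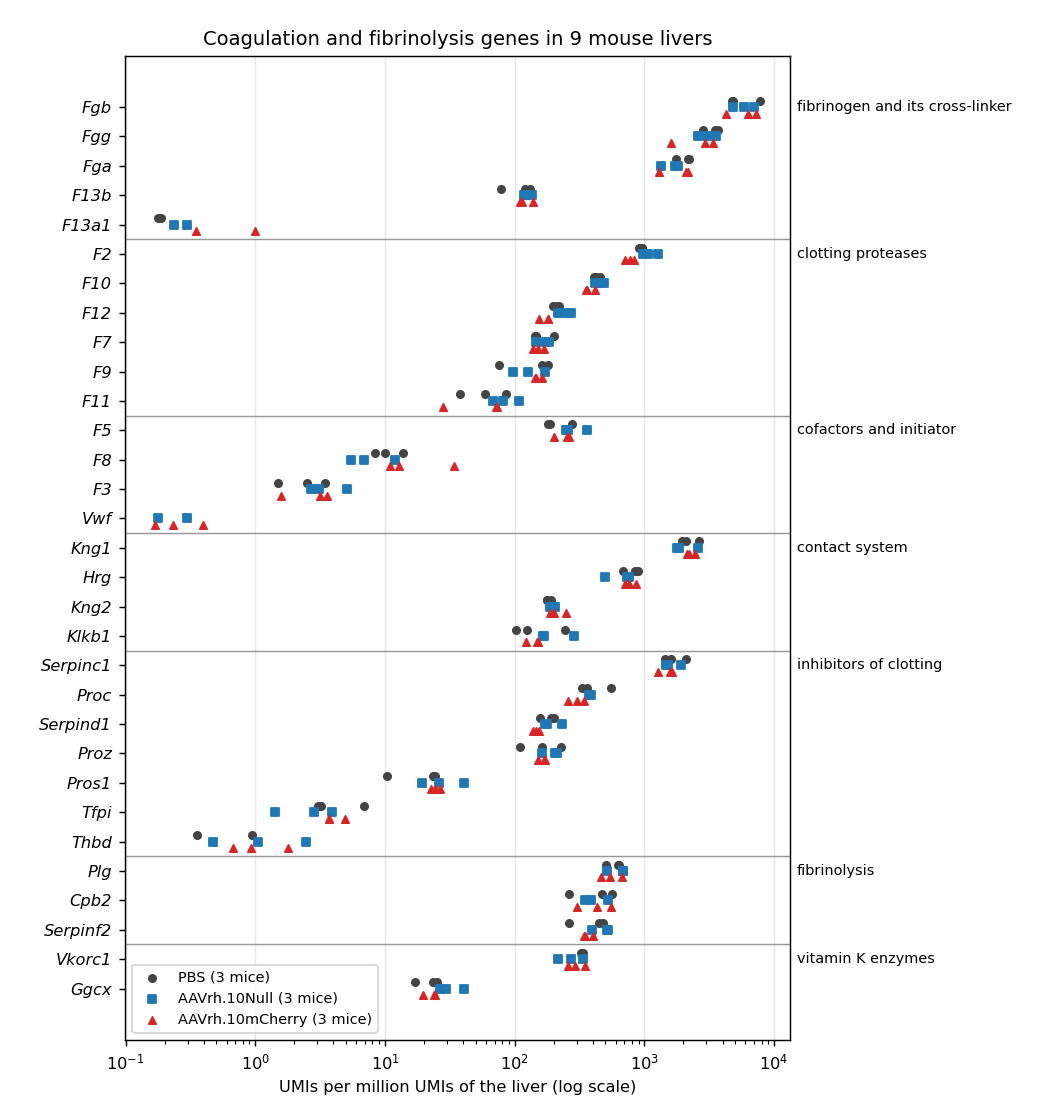
Level of each coagulation and fibrinolysis gene in CPM of the liver (log axis), 1 point per mouse, grouped by role and coloured by treatment. The levels ran from under 1 for Vwf and F13a1 to 7799 for Fgb, and livers in which a gene had 0 UMIs are not drawn.

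The 3 fibrinogen chains were among the 4 most abundant coagulation genes, beside Kng1. Fgb, the beta chain, stood at 7799, 4742 and 4829 CPM in PBS mice 1, 4 and 7, at 4845, 7053 and 5813 in AAVrh.10Null mice 2, 5 and 8, and at 7278, 4258 and 6290 in AAVrh.10mCherry mice 3, 6 and 9. The same order of mice is used for every gene below. Fgg, the gamma chain, stood at 3496, 2833 and 3693 with PBS, at 3054, 3543 and 2605 with AAVrh.10Null, and at 3354, 1608 and 2944 with AAVrh.10mCherry. Fga, the alpha chain, stood at 2216, 1760 and 2156, at 1718, 1806 and 1338, and at 2091, 1288 and 2152. The groups overlapped for all 3 chains, and mouse 6 was the lowest liver for each. The chains are known to assemble in equal numbers in the secreted protein, yet their captured UMIs were unequal: Fgb exceeded Fga 3.25 ± 0.65 times (SD, n = 9, range 2.24 to 4.34) and Fgg exceeded Fga 1.65 ± 0.24 times (range 1.25 to 1.96).

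**Figure D2:**
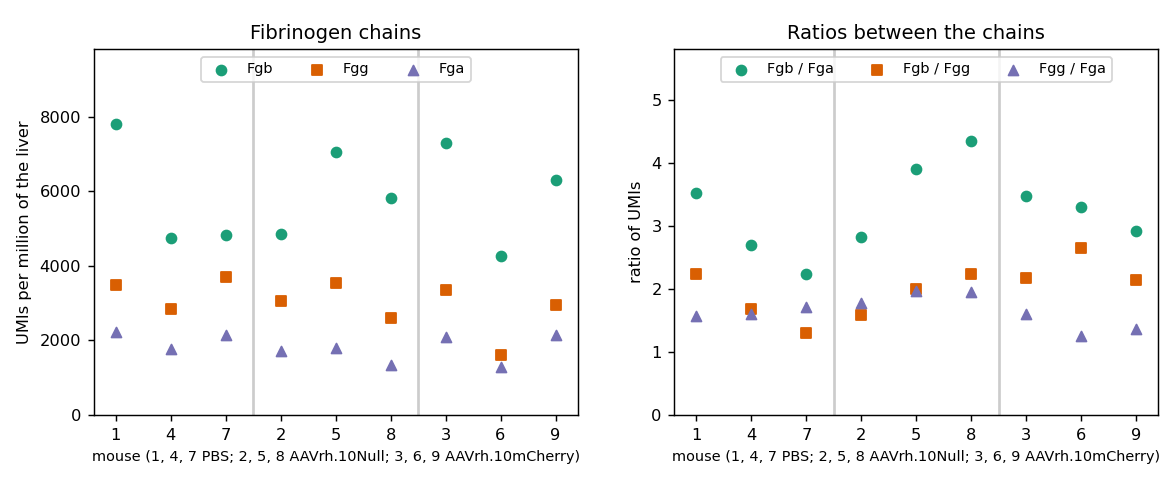
Left, CPM of Fgb, Fgg and Fga in each of the 9 livers, ordered by group; right, the ratio of UMIs between pairs of chains. Fgb was above Fgg and Fgg above Fga in every liver, and the ratio of Fgb to Fga lay between 2.24 and 4.34.

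The fibrinogen genes lie side by side at chr3:83007724-83049863 (GRCm38), 42.1 kb with Fgg and Fga on the plus strand and Fgb on the minus strand, and no other coding gene between them. Their promoters are shown because fibrinogen and factor XIII genes, nearly all of it fibrinogen, held a median of 53.5% of the coagulation UMIs. Each line gives the 250 bases before the RefSeq start of the gene, 5' to 3' on the gene's strand (GRCm38.p6). Capitals mark a match to TTGCNNAA on either strand, a motif of C/EBP factors.
Fga, chr3:83025903-83026152, plus strand: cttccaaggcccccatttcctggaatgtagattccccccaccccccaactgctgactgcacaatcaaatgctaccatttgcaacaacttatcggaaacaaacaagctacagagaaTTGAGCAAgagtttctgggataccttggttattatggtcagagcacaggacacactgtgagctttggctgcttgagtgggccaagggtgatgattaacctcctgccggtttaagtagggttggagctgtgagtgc
Fgb, chr3:83049864-83050113, minus strand: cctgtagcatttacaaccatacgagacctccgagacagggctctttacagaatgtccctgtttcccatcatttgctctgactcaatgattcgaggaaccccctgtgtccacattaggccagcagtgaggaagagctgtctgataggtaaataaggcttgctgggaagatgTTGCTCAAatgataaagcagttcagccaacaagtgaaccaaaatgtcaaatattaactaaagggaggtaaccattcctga
Fgg, chr3:83007474-83007723, plus strand: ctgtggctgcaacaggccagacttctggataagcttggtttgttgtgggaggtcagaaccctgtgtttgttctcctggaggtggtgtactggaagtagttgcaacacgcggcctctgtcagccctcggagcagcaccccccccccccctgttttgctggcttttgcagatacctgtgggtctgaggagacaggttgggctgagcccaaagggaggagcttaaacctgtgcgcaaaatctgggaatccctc
The motif began 135 bases before the RefSeq start of Fga and 80 bases before that of Fgb, and no match was found in the window of Fgg. GENCODE starts Fga at 83026076, inside its window, so the distance for Fga depends on the annotation. Over the 28 windows of the 26 matched coagulation genes, TTGCNNAA occurred in 8 (F11, F9, Fga, Fgb, Ggcx, Hrg, Klkb1 and Kng2), or 28.6%, against 9.56% of all 32851 windows. Of the other motifs searched on both strands, a motif of HNF1, searched under that name, occurred in 1 window (F13b, 3.57% against 0.371%) and the HNF4 motif CAAAGTCC in 0 (against 1.2%). The FOXA motifs TGTTTAC and TGTTTGC occurred in 14.3% (against 7.29%), the ETS motif CAGGAAG in 14.3% (against 10.8%) and TATAAA in 7.14% (against 12.4%).  These are matches of letters and say nothing about binding in these livers.

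The remaining genes of this role were the 2 subunits of factor XIII, the transglutaminase that cross-links fibrin. F13b, the carrier subunit, stood at 131, 119 and 78.9 CPM with PBS, at 122, 136 and 118 with AAVrh.10Null or 109, 115 and 138 with AAVrh.10mCherry, so that the groups overlapped. F13a1, the catalytic subunit, gave 14 UMIs in 6 of the 9 livers. Of those 14 UMIs, 6 lay in barcodes of no cell class and 4 in the 9 barcodes with monocyte markers. The hepatocyte, macrophage, T and NK cell, and B cell barcodes held 1 each.

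Among the clotting proteases, F2 (prothrombin) was the most abundant and F11 the least. F2 stood at 964, 903 and 954 CPM with PBS, at 1264, 1062 and 976 with AAVrh.10Null, and at 776, 706 and 835 with AAVrh.10mCherry, so that all 3 groups were separate. F10, which forms the complex that cleaves prothrombin, stood at 422, 452 and 408, at 419, 486 and 447, and at 362, 355 and 418, with the highest AAVrh.10mCherry liver just under the lowest AAVrh.10Null liver. F12, which starts the contact pathway, stood at 221, 210 and 196, at 270, 253 and 214, and at 181, 154 and 180, and the AAVrh.10mCherry livers were below every other liver. F7, the partner of tissue factor, stood at 146, 144 and 199, at 147, 185 and 170, and at 139, 152 and 169. F9, the haemophilia B gene, stood at 161, 181 and 75.5, at 126, 172 and 97.6, and at 147, 142 and 162, with the shallow mouse 7 lowest. F11 stood at 85.0, 59.4 and 37.8, at 67.4, 81.7 and 107, and at 73.5, 27.9 and 71.4, and mouse 6 was its lowest liver. The groups overlapped for F7, F9 and F11.

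The cofactors and tissue factor differed widely in level. F5, the cofactor of factor X, stood at 182, 278 and 185 CPM with PBS, at 362, 250 and 258 with AAVrh.10Null and at 202, 262 and 255 with AAVrh.10mCherry. F8, the cofactor of factor IX and the haemophilia A gene, stood at 10.1, 8.44 and 13.7, at 12, 6.85 and 5.5, and at 11, 33.8 and 12.8, so that mouse 6 stood alone at 33.8 and the groups overlapped. F3, tissue factor, stood at 2.5, 1.5 and 3.43, at 5.12, 3.07 and 2.67, and at 3.54, 1.58 and 3.15. The groups overlapped for F5 and F3 as well. Vwf, the platelet adhesion protein that carries factor VIII in plasma, gave 8 UMIs in 5 of the 9 livers.

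In the contact system, Kng1, a precursor of bradykinin, was the third most abundant coagulation gene. It stood at 2630, 1956 and 2094 CPM with PBS, at 1771, 2584 and 1839 with AAVrh.10Null and at 2121, 2195 and 2455 with AAVrh.10mCherry. Its near-identical paralogue Kng2 stood at 190, 176 and 178, at 196, 188 and 203, and at 188, 247 and 201; how reads were divided between the pair is not given in the sources used here, so both levels are uncertain. Hrg, a histidine-rich plasma glycoprotein, stood at 899, 849 and 686, at 740, 766 and 498, and at 706, 866 and 756. Klkb1, plasma prekallikrein, stood at 102, 245 and 124, at 288, 167 and 165, and at 152, 122 and 148. Its AAVrh.10mCherry livers were below its AAVrh.10Null livers, while the groups overlapped for Kng1, Kng2 and Hrg. Klkb1 shares its strand with the overlapping gene Gm45753, and whether the counting used strand is likewise not given, so reads of overlapping genes such as Serpind1 and Pi4ka, or F8 and Fundc2, could also have been assigned to either.

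Among the inhibitors, Serpinc1 (antithrombin) was the fifth most abundant coagulation gene. It stood at 2092, 1603 and 1438 CPM with PBS, at 1459, 1911 and 1508 with AAVrh.10Null and at 1588, 1270 and 1618 with AAVrh.10mCherry. Proc, the anticoagulant protease protein C, stood at 362, 332 and 553, at 386, 371 and 380, and at 299.9, 258.8 and 340.0, so that the AAVrh.10mCherry livers were below every AAVrh.10Null liver. Serpind1, heparin cofactor II, stood at 157, 202 and 189, at 232, 179 and 171, and at 147, 138 and 155, with the AAVrh.10mCherry livers below every other liver. Proz, a cofactor for inhibition of factor X, stood at 161, 227 and 110, at 213, 205 and 162, and at 168, 152 and 170. The other 3 inhibitors were low. Pros1, protein S, stood at 24.2, 23.3 and 10.3, at 26.1, 40.9 and 19.3, and at 22.4, 26.3 and 24.5. Tfpi, the inhibitor of the tissue factor complex, stood at 3.03, 3.19 and 6.86, at 3.88, 1.42 and 2.82, and at 3.71, 4.95 and 3.73, the highest value resting on 2 UMIs of mouse 7. Thbd, the endothelial thrombin receptor thrombomodulin, gave 53 UMIs in 8 livers. The groups overlapped for Serpinc1, Proz, Pros1 and Tfpi.

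The fibrinolysis genes were moderately abundant. Plg, the precursor of plasmin, stood at 639, 623 and 501 CPM with PBS, at 687, 688 and 516 with AAVrh.10Null and at 544, 466 and 666 with AAVrh.10mCherry. Serpinf2, the plasmin inhibitor, stood at 449, 476 and 264, at 518, 527 and 396, and at 402, 342 and 351. Cpb2, a carboxypeptidase that protects fibrin from plasmin, stood at 558, 473 and 261, at 386, 523 and 346, and at 554, 299.9 and 427. The groups overlapped for all 3 genes. Of the vitamin K enzymes, Vkorc1, the reductase blocked by warfarin, stood at 337, 329 and 326, at 339, 217 and 269, and at 351, 256 and 289, with overlapping groups. Ggcx, the carboxylase that vitamin K serves, stood at 23.4, 25.1 and 17.2, at 40.7, 29.3 and 26.6, and at 23.9, 19.6 and 24.3, and its AAVrh.10Null livers were above all others.

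Neighbouring genes of the cascade were found at 3 further places. F7, F10 and Proz lie within 50 kb at chr8:13026034-13076026, F11 and Klkb1 within 53.7 kb at chr8:45241174-45294859, and Hrg, Kng2 and Kng1 within 131 kb at chr16:22951072-23082078 (all GRCm38). The levels of such neighbours differed: F10 stood at 419 ± 41.6 CPM against 161 ± 20.8 for F7 and 174 ± 35.9 for Proz (SD, n = 9).

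The next question was which cells carried these transcripts. Barcodes were assigned by marker genes: hepatocyte barcodes had at least 5 of 12 hepatocyte markers and under 2 of any other cell type apart from red cells, and endothelial barcodes had at least 3 of 15 endothelial markers (Clec4g, Stab2, Kdr and others) and more of these than of any other type apart from hepatocyte and red cell markers. The first class held 42487 barcodes (94.6%) and the second 716 (1.59%). No coagulation gene was among the markers. F8, Tfpi and Pros1 were higher in endothelial than in hepatocyte barcodes of the same mouse, whereas 24 other coagulation genes were lower.

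F8 reached 355, 464, 423, 210, 262, 903, 264 and 346 CPM in the endothelial barcodes of mice 1, 2, 3, 4, 5, 6, 8 and 9. In the hepatocyte barcodes it lay between 2.75 and 6.64 over all 9 mice. The ratio within a mouse ran from 46.7 to 136 (median 80.1) and was above 1 in 8 of 8 mice. The difference was 5.84 on the log2 scale (SE 0.19, adjusted p = 1.937e-204 by edgeR's quasi-likelihood test with the mouse as block, 8 mice). Of all 642 F8 UMIs, 372 (57.9%, 95% exact binomial interval 54.0 to 61.8%) lay in the endothelial barcodes and 232 in the far more numerous hepatocyte barcodes.

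Tfpi reached 78.1, 155, 119, 128, 32.7, 119, 140 and 108 CPM in the endothelial barcodes of the same 8 mice. It lay between 0 and 1.83 in the hepatocyte barcodes. The ratio within a mouse ran from 26.9 to 278 (median 96.6), on 1 to 19 endothelial UMIs a mouse. The hepatocyte barcodes of all mice together held 63 Tfpi UMIs, so single ratios are uncertain. The difference was 5.95 (log2, SE 0.32, adjusted p = 1.098e-76 by edgeR). Of 179 Tfpi UMIs, 95 (53.1%, interval 45.5 to 60.6%) lay in the endothelial barcodes.

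Pros1 was found in both classes, with a smaller difference. It reached 42.1, 165, 185, 81.7, 196, 315, 93.3 and 79.5 CPM in the endothelial barcodes and lay between 7.44 and 39.4 in the hepatocyte barcodes. The ratio within a mouse ran from 1.76 to 18.6 (median 5.10), and the difference was 2.05 (log2, SE 0.22, adjusted p = 2.704e-19 by edgeR). Most Pros1 UMIs, 1131 of 1326 (85.3%), nevertheless lay in the hepatocyte barcodes, since these made up most of each liver. Intervals of shares cover counting error only.

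The promoters of these 3 genes are shown because they alone passed the test in the endothelial direction. Each line is again the 250 bases before a RefSeq start on the gene's strand, and capitals mark matches to the ETS motif or to TATAAA on either strand. RefSeq gives 2 starts for Tfpi.
F8, chrX:75380042-75380291, minus strand: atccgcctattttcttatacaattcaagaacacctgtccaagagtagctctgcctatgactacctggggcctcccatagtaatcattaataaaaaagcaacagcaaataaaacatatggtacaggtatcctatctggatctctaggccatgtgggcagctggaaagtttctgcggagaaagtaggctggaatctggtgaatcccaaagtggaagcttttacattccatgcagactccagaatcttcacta
Tfpi, chr2:84474175-84474424, minus strand: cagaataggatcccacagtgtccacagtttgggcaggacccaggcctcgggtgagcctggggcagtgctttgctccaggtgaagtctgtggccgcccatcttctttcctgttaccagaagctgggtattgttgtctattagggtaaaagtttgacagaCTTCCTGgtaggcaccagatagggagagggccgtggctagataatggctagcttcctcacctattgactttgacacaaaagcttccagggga
Tfpi, chr2:84476760-84477009, minus strand: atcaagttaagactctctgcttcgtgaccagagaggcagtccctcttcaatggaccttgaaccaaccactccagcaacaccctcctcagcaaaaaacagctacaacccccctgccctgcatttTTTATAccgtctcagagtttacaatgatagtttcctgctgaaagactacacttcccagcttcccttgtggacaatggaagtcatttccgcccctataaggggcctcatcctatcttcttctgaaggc
Pros1, chr16:62854057-62854306, plus strand: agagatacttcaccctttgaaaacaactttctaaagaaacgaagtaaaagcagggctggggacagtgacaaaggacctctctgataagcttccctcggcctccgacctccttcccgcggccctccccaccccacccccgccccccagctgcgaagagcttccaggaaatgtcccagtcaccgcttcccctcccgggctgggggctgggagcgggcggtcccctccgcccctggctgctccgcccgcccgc
The upstream start of Tfpi has TATAAA 127 bases before it and the downstream start has the ETS letters 92 bases before it. None of the 6 motifs was found in the windows of F8 and Pros1. The F8 window lies inside the gene as GENCODE places it (chrX:75172715-75382615), and the bases before the GENCODE start of F8 were not searched.

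**Figure D3:**
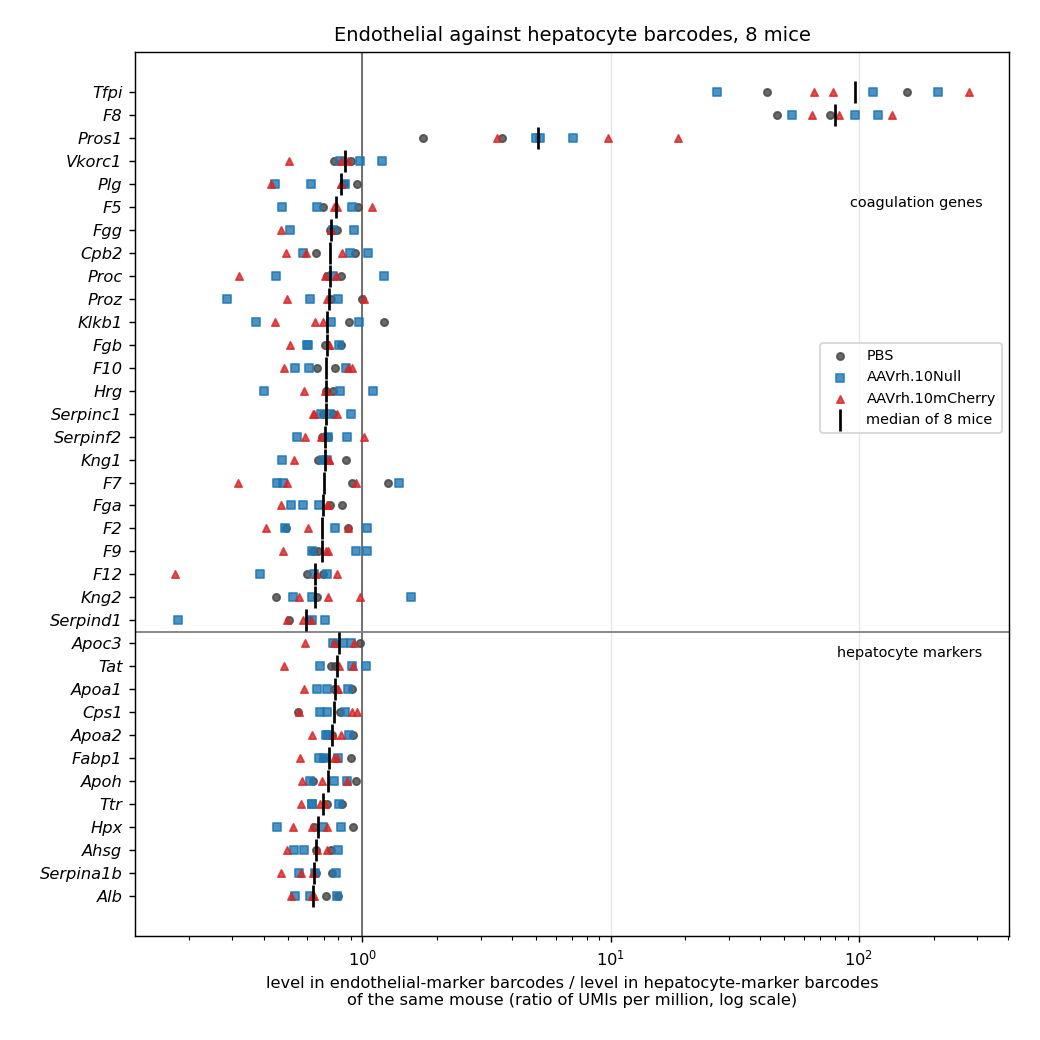
Ratio of the level in endothelial barcodes to the level in hepatocyte barcodes of the same mouse (log axis), 1 point per mouse and a bar at the median of 8 mice, for coagulation genes and, below the line, hepatocyte markers. Tfpi, F8 and Pros1 lie to the right of 1 in every mouse, and the medians of the other genes lie between 0.592 and 0.85.

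Over the 27 coagulation genes tested, 3 were higher and 24 lower, with a median difference of -1.01 (log2). Over the 8671 genes tested, 14.2% were called higher and 21.8% lower, with a median of -0.17. Of all calls, 39.5% were in the higher direction, against 80.5% when libraries were scaled by total UMIs alone, which moved the median of all genes to 0.34. On that scale F8, Tfpi and Pros1 were still called higher and 21 coagulation genes lower. The lower genes included Fgb (-1.10, SE 0.10), Serpinc1 (-1.01, SE 0.11), F2 (-1.09, SE 0.11) and Plg (-1.01, SE 0.12), all called by edgeR. The medians of their unadjusted ratios, 0.592 to 0.85 over 21 genes, overlapped those of the 12 hepatocyte markers, 0.634 (Alb) to 0.809 (Apoc3). Hepatocyte marker transcripts were thus present in endothelial barcodes as well, and the part of such RNA in the levels of single coagulation genes was not tested.

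How much RNA from other cells entered each class was not tested. Levels were also taken in barcodes with T or NK cell markers, of whose 271098 UMIs mouse 4 gave 94778. Fgb stood at 3158 CPM in them (95% Poisson interval 2950 to 3376), against 4289 in endothelial and 6280 in hepatocyte barcodes. F8 had 0 UMIs among 271098 in the T and NK cell barcodes, where 3 UMIs would be a level of 11.1 CPM and the Poisson interval reaches 13.6 CPM, against 440 (396 to 487) in endothelial barcodes. Tfpi stood at 7.38 (0.893 to 26.6) against 112 (90.9 to 137), and Pros1 at 14.8 (4.02 to 37.8) against 136 (112 to 163). In the hepatocyte barcodes F8 stood at 4.66 (4.08 to 5.30), and it stood at 4.27 in those without any marker of another cell type. Stellate cell barcodes had intermediate levels of Pros1 (66.6), F8 (20.5) and Tfpi (20.5). These intervals cover counting error only.

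**Figure D4:**
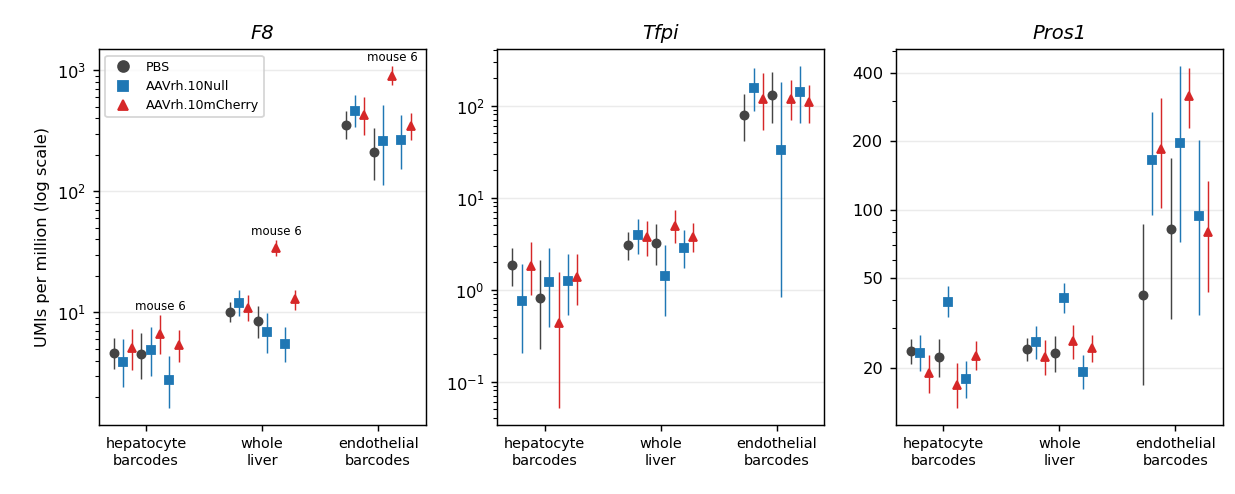
Level of F8, Tfpi and Pros1 in CPM (log axis) in hepatocyte barcodes, the whole liver and endothelial barcodes of 8 mice, without mouse 7, which had 19 endothelial barcodes. Bars are 95% Poisson intervals of the count; each gene was higher in the endothelial barcodes of every mouse, and F8 was highest in mouse 6 at 6.64 in hepatocyte barcodes, 33.8 in the whole liver and 903 in endothelial barcodes.

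Rare members were described by their UMIs. Thbd did not pass the filter on low counts, and 27 of its 53 UMIs lay in endothelial barcodes (50.9%, interval 36.8 to 64.9%), at 31.9 CPM against 0.321 in hepatocyte barcodes. Vwf had 6 of 8 UMIs in endothelial barcodes. F3 had 139 of 153 UMIs in hepatocyte barcodes, which held 49811507 of the 53047251 UMIs in all, at a level of 2.79 CPM (95% Poisson interval 2.35 to 3.29). Its level in endothelial barcodes was 3.55 CPM (0.732 to 10.4) on 3 UMIs, and 3 further UMIs lay among the 55213 of the 23 barcodes with cholangiocyte markers. Of 7 platelet markers, 4 (Gp9, Gp1bb, Tubb1 and Treml1) had 0 UMIs, and no barcode reached the platelet class.

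Macrophage barcodes, defined by at least 3 of 12 markers such as Clec4f and Vsig4, numbered 204, and 6 mice had at least 20. Of 25 coagulation genes tested, none was called higher and 24 were called lower by edgeR, including F12 (-2.60, SE 0.32) and Fgb (-1.85, SE 0.17). Over 8495 genes, 7.50% were called higher and 23.7% lower, with a median of -0.62 (log2). A scaling by total UMIs alone was not run for macrophage barcodes. At an unadjusted p under 0.05 the count of higher genes was likewise 0. Pros1 alone was not called, at -0.01 (SE 0.53, adjusted p = 0.996 by edgeR), on 13 UMIs.

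Of 28 further genes of the pathway, chosen as receptors, regulators and processing factors, 16 could be tested between endothelial and hepatocyte barcodes. By edgeR 3 were higher and 9 lower, against 14.2% and 21.8% of all 8671 genes tested. The higher genes were Anxa2, a cell surface receptor for plasminogen (4.60, SE 0.33), Gas6, a vitamin K dependent growth factor related to protein S (3.95, SE 0.26), and F2r, the thrombin receptor (2.89, SE 0.25). The lower genes included Serping1, the C1 inhibitor (-1.15, SE 0.13), and Serpina10, the inhibitor that protein Z serves (-1.08, SE 0.19). In macrophage barcodes 1 of 15 was higher, the fibrinogen-like protein Fgl2 (6.29, SE 0.68), and 11 were lower. Over all 8495 genes tested there, 7.50% were higher and 23.7% lower.

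Group differences were tested on the whole-liver sums with all 9 mice in 1 edgeR fit, in which 28 of the 31 genes passed the filter on low counts and Vwf, F13a1 and Thbd did not. In such sums, fewer cells of a type and less RNA per cell cannot be told apart. No coagulation gene was called in any contrast. The share of all 11321 genes called was 0.00883% for AAVrh.10Null against PBS, 0.0% for AAVrh.10mCherry against PBS and 0.0265% for AAVrh.10mCherry against AAVrh.10Null, so a count of 0 among 28 genes lies at the background. DESeq2 also called 0 coagulation genes in each contrast, against 44, 2 and 0 of all 11321 genes, in the same order. In simulated counts for the first contrast over 11210 genes, the same fit recovered 89.0% of 4-fold and 22.0% of 2-fold changes. The simulation gave every gene the same spread beyond counting error and changed many genes at once, none of them with few UMIs. These shares therefore do not give the chance of finding a change in a single coagulation gene.

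For AAVrh.10Null against PBS, the log2 difference was below 0 for 11 of 28 genes, with a median of 0.06 against -0.01 for all genes. An unadjusted p under 0.05 was found for 1456 of all 11321 genes and for 0 coagulation genes. The 5 smallest p belonged to Ggcx, F5, F3, Fga and Hrg. Their differences were 0.42 (SE 0.22) for Ggcx, 0.39 (SE 0.24) for F5, 0.70 (SE 0.47) for F3, -0.36 (SE 0.27) for Fga and -0.31 (SE 0.24) for Hrg. The lowest adjusted p was 0.447 by edgeR, for Ggcx. In levels scaled to the UMIs of a liver, 2 genes (F2 and Ggcx) were higher in every AAVrh.10Null liver than in any PBS liver, and 0 were lower, against 12.3% and 6.87% of all genes tested.

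For AAVrh.10mCherry against PBS, 23 of 28 genes were below 0, with a median of -0.20 against 0.02 for all genes. An unadjusted p under 0.05 was found for 744 of all 11321 genes. Proc, at -0.58 (SE 0.24), had an unadjusted p of 0.0337 and an adjusted p of 0.717 by edgeR. The next 4 were Serpind1 (-0.44, SE 0.21), F12 (-0.42, SE 0.21), F8 (0.81, SE 0.42) and F2 (-0.41, SE 0.22), all with the same adjusted p. Without mouse 6 the F8 difference from PBS was 0.18. The 3 genes F2, F12 and Serpind1 were lower in every AAVrh.10mCherry liver than in any PBS liver, against 2.37% of all genes, and 0 were higher, against 14.4%. The hepatocyte markers together made up 12.8 ± 1.53% of UMIs with AAVrh.10mCherry and 15.0 ± 1.31% with PBS (SD, n = 3), and their part in these differences was not tested. Without mouse 6 the median was -0.07. Scaled by total UMIs alone, the median was also -0.07, against 0.16 for all genes, and 18 of 28 genes were below 0.

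For AAVrh.10mCherry against AAVrh.10Null, 20 of 28 genes were below 0, with a median of -0.30 against 0.00 for all genes. An unadjusted p under 0.05 was found for 826 of all 11321 genes and for 5 coagulation genes. These 5 were F12 (-0.62, SE 0.21), Ggcx (-0.60, SE 0.21), F2 (-0.61, SE 0.22), F8 (1.12, SE 0.40) and Serpind1 (-0.50, SE 0.21). The lowest adjusted p was 0.603 by edgeR, for F12. The 7 genes F2, F10, F12, Klkb1, Serpind1, Proc and Ggcx were lower in every AAVrh.10mCherry liver than in any AAVrh.10Null liver, against 4.55% of all genes tested, and 0 were higher, against 12.0%. Scaled by total UMIs alone, the median of all genes lay at 0.11 and that of the coagulation genes at -0.20. The hepatocyte markers made up 13.1 ± 0.905% of UMIs with AAVrh.10Null (SD, n = 3). Without mouse 6 the median of the coagulation genes was -0.17, and without mice 2, 7 and 8, a choice made after seeing the data that left mouse 5 alone in its group, it was -0.43. Mice 2 and 8 (AAVrh.10Null) and mouse 7 (PBS) are those with few barcodes ending in an uncalled base. No AAVrh.10mCherry mouse is among them, so this library difference cannot be fully told apart from the group. The 2 contrasts with PBS share their control livers, and both contrasts with AAVrh.10mCherry share theirs.

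**Figure D5:**
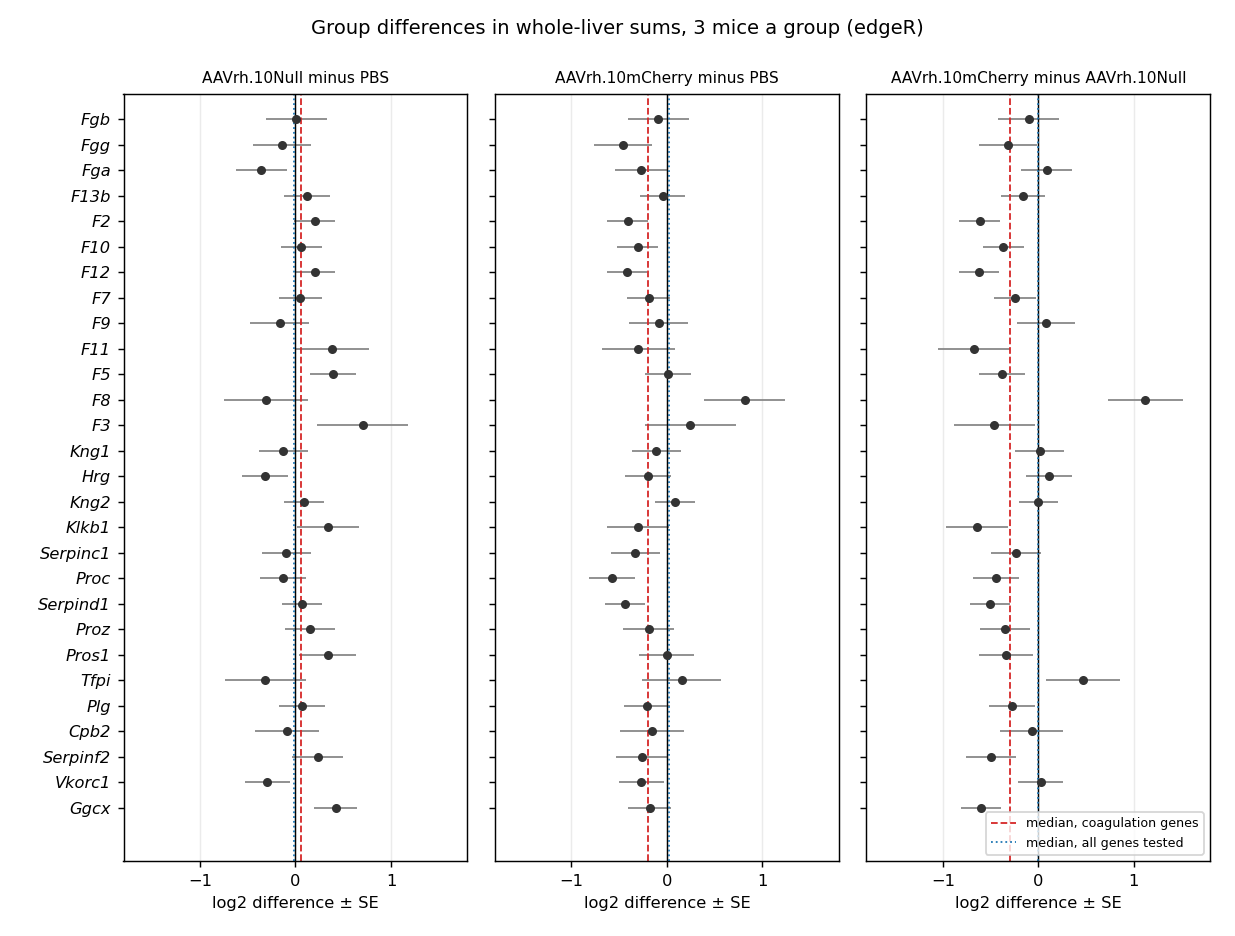
Difference in log2 level with its SE for the 28 tested coagulation genes in the 3 contrasts of whole-liver sums (3 mice a group, edgeR); the dashed line is the median of these genes and the dotted line that of all genes tested. No gene passed the test, and the medians lay at 0.06, -0.20 and -0.30.

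F8 had the largest difference between the vector groups, and 1 liver carried much of it. Without mouse 6 its difference between AAVrh.10mCherry and AAVrh.10Null was 0.48, against 1.12 with it. Endothelial barcodes made up 1.97 ± 0.81% of barcodes with AAVrh.10mCherry, 1.12 ± 0.50% with AAVrh.10Null and 2.17 ± 1.12% with PBS (SD, n = 3), and 2.81% in mouse 6. The 15 endothelial markers summed to 202, 591 and 274 CPM in AAVrh.10mCherry mice 3, 6 and 9, and to 328, 109 and 163 in AAVrh.10Null mice 2, 5 and 8. F8 UMIs per endothelial marker UMI lay between 0.0258 and 0.0642 in the 9 livers, with mouse 6 at 0.0573, inside that range. Within endothelial barcodes, F8 was also highest in mouse 6 among the 8 mice compared. Its ratio to hepatocyte barcodes there was the highest as well (136, lowest mouse 46.7). PBS mouse 7 had a larger share of endothelial barcodes (3.45%), with whole-liver F8 at 13.7 CPM on 4 UMIs. The part of the endothelial share in the difference was not tested.

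The same contrasts within hepatocyte barcodes left 27 coagulation genes to test, again with 0 called by edgeR or DESeq2. The share of all 10723 genes called by edgeR was 0.00933%, 0.0% and 0.0187%, in the same order of contrasts. DESeq2 called 54, 2 and 3 of these genes. Medians were 0.03, -0.23 and -0.30, and the counts with an unadjusted p under 0.05 were 0, 1 (Proc) and 4 (F12, F2, Ggcx and Serpind1). Over all 10723 genes, the counts with such a p were 1547, 818 and 849. Within hepatocyte barcodes F8 differed by 0.49 (SE 0.30) between the vector groups.

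The further pathway genes gave 0 calls among the 18 tested in each whole-liver contrast by edgeR, with unadjusted p under 0.05 for 2, 1 and 3. Over all 11321 genes, 1456, 744 and 826 had such a p, in the same order of contrasts. Against PBS, AAVrh.10Null livers differed by 0.60 (SE 0.25) in Hgfac, the activator of hepatocyte growth factor, by -0.77 (SE 0.35) in Anxa2 and by -1.72 (SE 0.80) in Fgl2. The ranges of 4 marker lists overlapped between these groups. The 15 endothelial markers made up 0.0109 to 0.0328% of UMIs against 0.0157 to 0.0532% with PBS, and the 12 macrophage markers 0.0091 to 0.0172% against 0.0058 to 0.0277%. The 14 T and NK cell markers made up 0.0018 to 0.006% against 0.0013 to 0.0206%, and the 8 monocyte markers 0.0008 to 0.0016% against 0.0012 to 0.0048%. All markers of these 4 lists were detected. The 12 stellate cell markers also overlapped, at 0.0082 to 0.0191% of UMIs against 0.0164 to 0.0717% with PBS. The shares of stellate cell barcodes did not overlap. They were 0.333 ± 0.157% of barcodes with AAVrh.10Null and 1.203 ± 0.231% with PBS (SD, n = 3). The shares of endothelial, macrophage and T and NK cell barcodes overlapped. The part of these cell types in the differences was not tested. AAVrh.10mCherry livers differed from PBS by -0.63 (SE 0.28) in F2r and by -0.54 (SE 0.29) in S100a10, a partner of Anxa2. AAVrh.10mCherry livers differed from AAVrh.10Null livers by -0.94 (SE 0.24) in Hgfac, by 1.16 (SE 0.32) in Gas6 and by -0.50 (SE 0.23) in Habp2, a plasma protease. The lowest adjusted p over these 8 differences was 0.338 by edgeR.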

How the data were processed

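Libraries of single liver cells from 9 mice were made with Drop-seq and read on an Illumina HiSeq 2500, per the labels' protocols. The authors deposited 1 table of UMI counts per mouse, whole numbers without scaling, which list genes with at least 1 UMI. Per the submitters' processing notes, the build was mm10 and Seurat was used. The aligner, the annotation, the use of strand and the choice of barcodes are not given in the sources used here.

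Barcodes with at least 200 genes were kept (44898 of 48000, 53047251 UMIs), and doublets were not removed. Counts were summed per mouse and marker class and tested with edgeR 4.0.16 (TMM, filterByExpr, quasi-likelihood test, Benjamini-Hochberg adjustment over all genes, threshold 0.05) in R 4.3.3. DESeq2 1.42.0, other scalings, filters, marker rules and leaving out each mouse were alternatives. Classes of the same mouse were compared with the mouse as block, over mice with at least 20 barcodes in both. Fits were tested on simulated data. Poisson and binomial intervals are exact and cover counting error only. Each label names its own mouse, so the mouse was the unit of each test. The edgeR fit estimates the spread partly from all genes together. In the class comparisons, its very small p-values rest largely on that shared estimate. They do not measure each gene's own spread between mice.

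The members, gene lists and tests were chosen with earlier results of these data known. Values in every mouse are given for members that passed a test, the 5 with the smallest p in each whole-liver contrast, the fibrinogen chains, the 5 most abundant members and those higher in endothelial or macrophage barcodes. Of the further pathway genes, those that passed a test or otherwise the 3 with the smallest p in each contrast were to be named, and of those that passed only examples are given. One gene that this rule names is not reported here. Positions are from GENCODE and promoters from RefSeq, both on GRCm38, and the starts differ between them for some genes.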

Additional observations from a re-analysis of the deposited data

Results flagged for a closer look

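The ratio of Serpind1 between endothelial and hepatocyte barcodes was 0.181 in mouse 5, far below the other 7 mice, whose ratios reached 0.706. On the log2 scale, its gap to the nearest mouse was 0.74 of the whole range, above the 95% critical value of Dixon's test for 8 mice. The value rests on 1 UMI of Serpind1 among 30580 UMIs of endothelial barcodes. Ratios of 24 genes were examined in this way, and chance alone marks about 1 group in 20.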

How the results depend on the processing

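No coagulation gene was called in a group contrast under any alternative run, including each mouse left out (0 in every case). Over all genes, whole-liver fits without the filter on low counts called 306 of 26282 for AAVrh.10Null against PBS. They called 102 for AAVrh.10mCherry against PBS and 151 between the vector groups. With at least 500 genes a barcode, 47, 0 and 3 of 9532 genes were called. With 1 mouse left out, at most 8 genes were called in a contrast. A count of 0 among so few coagulation genes lies near these backgrounds. No paired analysis was possible because the groups share no replicate number. For the difference between vector groups, F8 came closest, with adjusted p from 0.0506 without a filter on low counts to 1.0 without mouse 2. Leaving out mice 2, 7 and 8 left 1 AAVrh.10Null mouse, which is assumed to vary like the other groups. In endothelial against hepatocyte barcodes, 5 genes were higher without the filter, which adds Thbd and Vwf. With at least 2 endothelial markers only 1 was higher (F8), in a fit that also took in mouse 7 and tested 24 of the genes, without Pros1, Tfpi and Ggcx. Leaving out each mouse gave 3 to 4 higher and 23 to 24 lower genes, and in macrophage barcodes 0 higher and 23 to 24 lower. Without the replicate block, F11 was not called (-0.80), and the calls of F8, Tfpi and Pros1 kept their direction and their side of the threshold. F11, Ggcx, Vkorc1 and F13b each lost their call in endothelial barcodes under at least 1 alternative. Pros1 in macrophage barcodes, which was not called, turned to 0.093 with at least 2 macrophage markers and ranged from -0.26 to 0.27 with 1 mouse left out (0.27 without mouse 2, 0.21 without mouse 4, 0.02 without mouse 9). The cause of these changes was not tested. Genes with few UMIs, such as Tfpi and F3, limit what group differences could be seen at this depth.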
